A study of Mus musculus with 48 samples.

Results

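Oxidative phosphorylation was followed on these arrays through the nuclear genes that encode the subunits of respiratory complexes I to V. Members were all probes whose symbol on the array begins with NDUF, UQCR, ATP5 or COX followed by 4 to 8, or is SDHA, SDHB, SDHC or SDHD. This rule, which uses names and no measured value, took 86 probes of 73 genes out of 24613 probes of 18991 genes. Of them 41 probes of 34 genes belong to complex I, 6 probes of 4 genes to complex II, 6 probes of 6 genes to complex III, 21 probes of 17 genes to complex IV and 12 probes of 12 genes to complex V. The name pattern also took NDUFAF1, an assembly factor of complex I, COX4NB, a protein of the endoplasmic reticulum membrane named for its neighbouring gene, and ATP5S, a coupling factor, none of which is a stable subunit. It missed CYC1, the cytochrome c1 subunit of complex III, which is given further on with the electron carriers. COX8A, ATP5G1 and ATP5G2 were not analysed here.

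The respiratory chain sits in the inner mitochondrial membrane. Complex I takes electrons from NADH and complex II takes them from succinate, ubiquinone carries them to complex III, cytochrome c carries them on to complex IV, and complex IV hands them to oxygen. Complexes I, III and IV pump protons, and complex V uses the proton gradient to make ATP. In white fat cells mitochondria also provide citrate for fatty acid synthesis and oxidise part of the fuel that the cell takes up. Several subunits of complex IV exist as a widespread form and as a form typical of heart, skeletal muscle and brown fat, among them COX6A2, COX7A1 and COX8B.

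The cells were 3T3-L1, a mouse fibroblast line that can become fat cells. They were transfected with a pool of non-targeting siRNAs (control siRNA) or a pool of siRNAs against PPARγ, each at 50 nM, and both groups went through the same differentiation scheme, IBMX at 0.5 mM with dexamethasone at 0.25 µM for 48 h, followed by insulin at 5 µg/ml with the PPARγ agonist rosiglitazone at 1 µM for 48 h. RNA was taken on day −2 and on days 0 to 6, counted from the addition of rosiglitazone, from 3 biological replicates per siRNA and day, which made 24 arrays per siRNA and 48 in all. By this count the scheme began on day −2 and rosiglitazone on day 0, so arrays of day −2, the baseline of every course, stand at its start and those of day 0 before or at the start of insulin and rosiglitazone. PPARγ KD is a knockdown of a whole culture by 1 siRNA pool and not a null line, and no group without transfection is part of the comparison. In bulk RNA, fewer cells of a type and less RNA per cell cannot be told apart.

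The targeted gene moved as the labels say. PPARG averaged 11.42 (log2) on control arrays against 9.08 on KD arrays and so fell by 2.34 (SE 0.04; adjusted p = 9.48e-34, limma, Bonferroni over all probes). It was lower in 24 of 24 pairs of same-day, same-number arrays, and its daily differences ranged from −1.93 to −2.63. Adipocyte markers accompanied it: 6 of 7 probes of the adipocyte list were lower in the KD over all days (6.74% of all probes were). On days 4 to 6 the summed signal of that list ran from 72885 to 96636 in control and from 12623 to 23224 in the KD, so the groups did not overlap. Of 10 fibroblast probes 6 were higher in the KD over all days (6.37% of all probes were). The summed signal of the fibroblast probes on days 4 to 6 overlapped, at 72873 to 91958 in control and 71828 to 100482 in the KD. Of 10 probes of dividing cells 4 were higher in the KD over all days and 0 on days 4 to 6 by limma with Bonferroni adjustment. On days 4 to 6, 1.54% of all probes were higher. The probes for brown adipocyte (6, with UCP1 and CIDEA), macrophage (7), endothelial (3) and skeletal muscle (4) markers were above background on no array. The part that the extent of differentiation plays in the values below was not tested.

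Of the 86 member probes, 61 passed the background on all 48 arrays and 73 on 3 or more (a detection p below 0.01 counting as above background). On no array above background were the probes of NDUFS1 (iron-sulfur subunit of complex I), SDHA (catalytic subunit of complex II), UQCRFS1 (Rieske protein of complex III), UQCRQ, ATP5J, COX6B2, COX7B2 and COX8C, and the second probes of NDUFB4, NDUFC1 and SDHC. Values of these probes are not measurements of the transcript. Replicate 3 stood apart: 17 of the 73 detected member probes read lower by over 1 on the log2 scale in replicate 3 than in the other 2 replicates under each siRNA (23.3%, against 8.99% of all detected probes), the lowest being NDUFB4, at −2.96 over both siRNAs. The test compared KD and control within replicates, which removes a shift in level. It does not recover a difference where replicate 3 fell to the background. NDUFC2, NDUFB2 and ATP5F1, for example, were above background on no replicate 3 array. The differences and calls of such probes are limited by this.

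Over days −2 to 6 together, 53 member probes of 47 genes were lower in the PPARγ KD and 0 were higher, while 6.74% of all probes on the array were lower. By limma at an unadjusted p under 0.05, 1 member probe was higher (17.8% of all probes), and after Benjamini-Hochberg adjustment 64 were lower (15.6% of all probes) and 0 higher (15.3% of all probes). Bright probes are called more easily, so the count was also taken among probes of a mean log2 signal of at least 9, a limit chosen after the data were seen: 50 of 62 such member probes were lower, against 17.2% of such probes in all. The median difference was −0.26 for the members and −0.03 for all probes, and 83 of 86 members had a negative difference, as had 64.9% of all probes. Among probes above background on at least 3 arrays these were 71 of 73 members and 46.4% of all probes. The median of the members was −0.35, −0.25 and −0.20 in replicates 1, 2 and 3. Without replicate 1, 2 or 3 the count of lower members was 33, 42 and 45. Apart from COX7A1 and COX8B, the differences called were small, from −0.16 to −0.64, or 1.12-fold to 1.56-fold, and all 53 had the same sign in 3 of 3 replicates. PPARγ KD was below control in 16 to 24 of the 24 pairs for these probes.

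**Figure D1:**
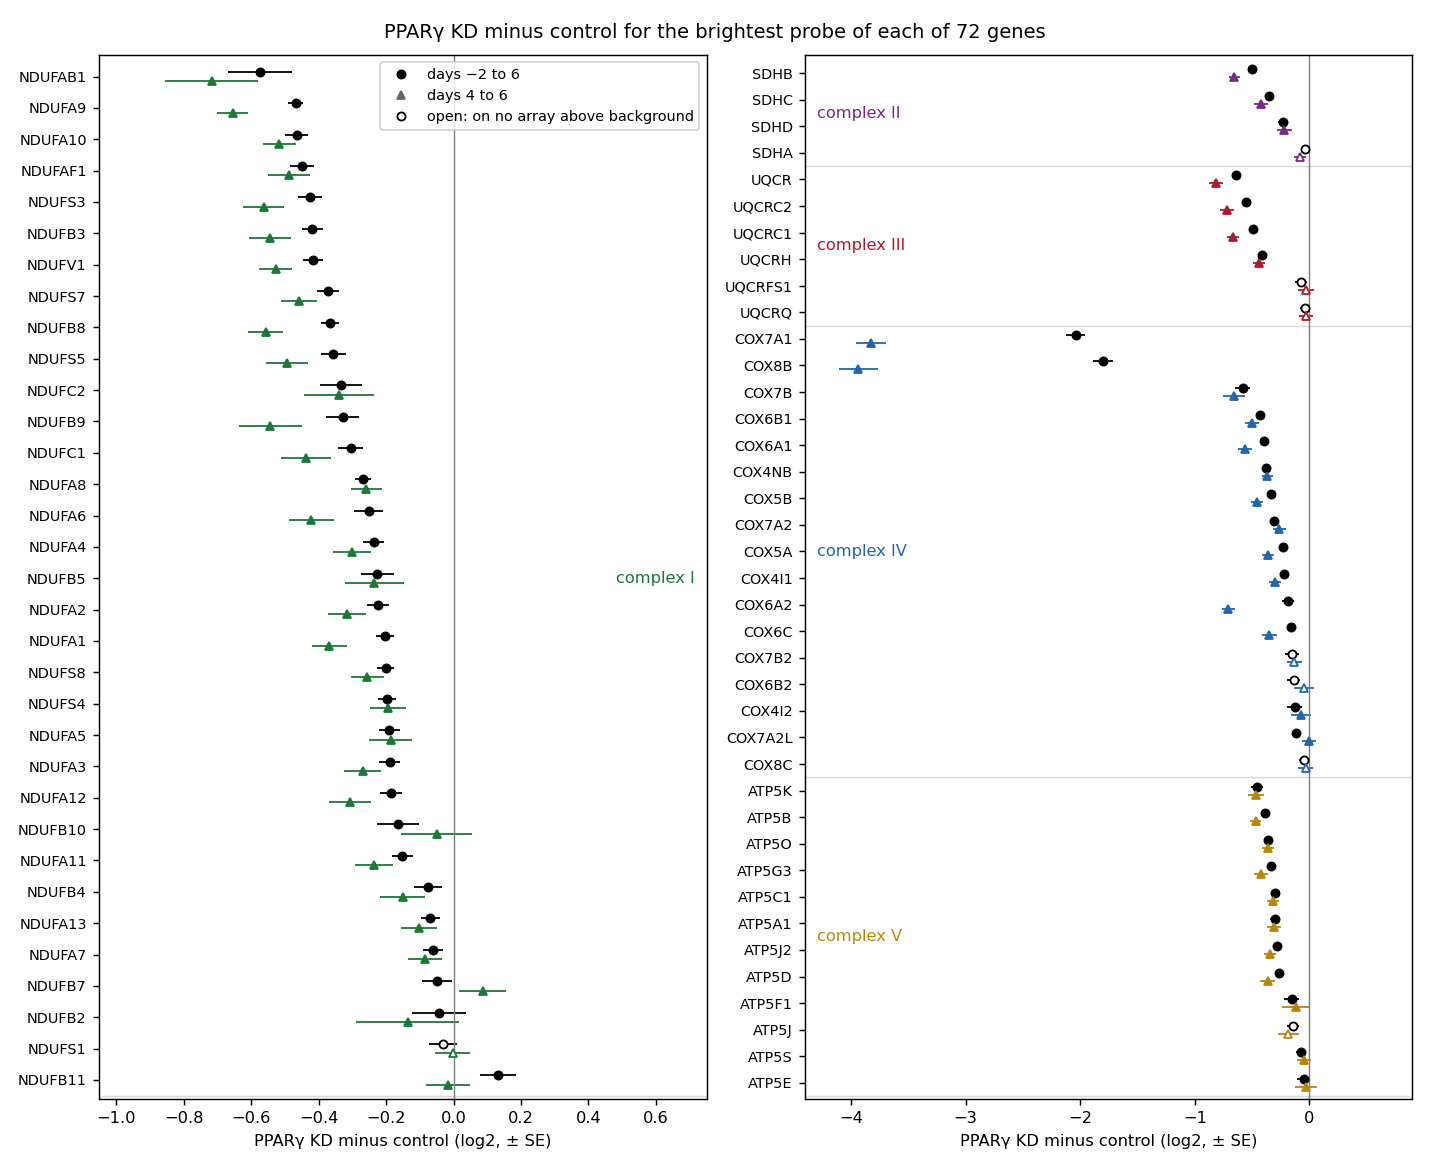
Difference between PPARγ KD and control (x axis, log2 ± SE) for the brightest probe of each of 72 genes (y axis), with complex I in the left panel and complexes II to V in the right panel; circles are days −2 to 6, triangles days 4 to 6, open symbols probes above background on no array. Most genes sit between −0.16 and −0.64 over all days, and COX7A1 and COX8B lie far to the left.

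In complex I, 26 of 41 probes (23 of 34 genes) were lower in the KD over all days, with a median of −0.22 ± 0.08 (SD of 3 replicates). NDUFA9, which binds lipid and NADPH at the joint of the membrane and matrix arms, fell by 0.47 (SE 0.02; adjusted p = 6.39e-18). On days 4 to 6 the lowest, median and highest of its 9 control arrays were 12.93, 13.15 and 13.18 and those of the 9 KD arrays 12.31, 12.45 and 12.52. The groups did not overlap. NDUFA10, an accessory subunit of the membrane arm, fell by 0.47 (SE 0.03; adjusted p = 5.27e-12) and was lower in 24 of 24 pairs.

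NDUFV1, the flavin subunit that accepts electrons from NADH, fell by 0.42 over all days (SE 0.03; adjusted p = 3.48e-12), and its arrays of days 4 to 6 lay between 13.29 and 13.48 in control and between 12.65 and 13.02 in the KD. NDUFS3, a core subunit of the matrix arm chosen here after its values were seen, was lower by both of its probes, by 0.43 and 0.53. NDUFAB1, the mitochondrial acyl carrier protein, had the largest difference of the complex at −0.57 (SE 0.09; adjusted p = 0.0114). It was dim, above background on 15 of 24 control and 6 of 24 KD arrays, and its difference was −0.94, −0.59 and −0.19 in replicates 1 to 3, so its size is uncertain.

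Not all of complex I passed. NDUFA13 and NDUFA7 were bright, with mean log2 signals of 14.92 and 12.96, and had differences of −0.07 and −0.06 (adjusted p = 1 for each). NDUFB7, chosen after its values were seen as were these, had −0.05 over all days and 0.09 on days 4 to 6 (adjusted p = 1 for both). NDUFB11 had the most positive value of all members, 0.13 (SE 0.05; adjusted p = 1). It was dim, with means of 6.89 in control and 7.02 in the KD, and above background on 21 control and 22 KD arrays. For NDUFA5 the brighter probe fell by 0.19 (adjusted p = 0.00874) and the dimmer had 0.02 (adjusted p = 1), so its probes differ. NDUFA4, now placed in complex IV although its name is that of a complex I subunit, fell by 0.24 (adjusted p = 8.97e-05).

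Complex II was read by few usable probes. SDHB, the iron-sulfur subunit of succinate dehydrogenase, fell by 0.50 (SE 0.03; adjusted p = 2.8e-16) by its bright probe. In control its 9 arrays of days 4 to 6 ran from 11.43 through a median of 11.92 to 12.06, and in the KD from 10.84 through 11.26 to 11.36. The 2 groups did not overlap. Its second probe, above background on 19 arrays, had −0.32 (adjusted p = 1). SDHC, a membrane anchor, fell by 0.35 (SE 0.03; adjusted p = 2.73e-08) and SDHD, the other anchor, had −0.23 (SE 0.04; adjusted p = 0.151). The median of the 6 probes, 2 of them above background on no array, was −0.27 over all days and −0.12 without replicate 1.

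All 4 complex III probes that were above background were lower. UQCR, a small subunit, now named Uqcr11, fell by 0.64 (SE 0.03; adjusted p = 1.39e-16), UQCRC2 and UQCRC1, the core proteins on the matrix side, by 0.55 and 0.49 (adjusted p = 5.11e-14 and 1.41e-15), and UQCRH, the hinge protein next to cytochrome c1, by 0.42 (adjusted p = 5.94e-12). For UQCR the arrays of days 4 to 6 ran from 12.91 through a median of 13.09 to 13.25 in control and from 12.07 through 12.23 to 12.44 in the KD. The lowest control array was thus above the highest KD array. The median of the complex over all 6 probes was −0.45 ± 0.06 (SD of 3 replicates), and −0.52 over the 4 detected ones, the most negative median of the 5 complexes; no test between complexes was made.

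In complex IV, 13 of 21 probes (10 of 17 genes) were lower over all days, with a median of −0.31 ± 0.03 (SD of 3 replicates). These counts include both probes of COX4NB, which is no subunit, and leave out NDUFA4, counted by its name under complex I. Of the widespread subunits, 6 named genes fell by modest amounts: COX6B1 by 0.43 (adjusted p = 1.56e-12), COX6A1 by 0.40 (adjusted p = 2.17e-10), COX5B by 0.34 (adjusted p = 7.53e-11), COX7A2 by 0.31 (adjusted p = 6.79e-06), COX5A by 0.23 (adjusted p = 7.39e-04) and COX4I1 by 0.22 (adjusted p = 1.58e-04). These encode small subunits around the catalytic core, which is itself made in the mitochondrion. COX7B fell by 0.58 (SE 0.06; adjusted p = 8.73e-07), but averaged 7.17 in replicate 3 against 9.98 and 10.08 in replicates 1 and 2. COX7A2L, which links complexes III and IV into supercomplexes, had −0.12 (adjusted p = 1), and COX6C, a bright widespread subunit chosen after its value was seen, had −0.16 (SE 0.03; adjusted p = 0.825). COX4I2, the form of COX4 typical of lung, was above background on 2 arrays only.

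COX7A1 and COX8B were the 2 members whose signal appeared during differentiation. Their promoters are shown because these genes changed most, and beside them those of UQCRC1 and UQCR, which were bright from day −2 on. Each is the stretch from 250 bases before to 50 bases after the annotated start in RefSeq (GRCm38.p6), read 5′ to 3′ on the strand of the gene, with matches to GCGCNTGCG (the NRF1 motif) and CCGGAAG (an ETS motif) in capitals. Cox7a1 lies on chr7:30183921-30184220 (+), Cox8b on chr7:140900397-140900696 (−), Uqcrc1 on chr9:108936398-108936697 (+) and Uqcr11 on chr10:80406772-80407071 (−).
COX7A1: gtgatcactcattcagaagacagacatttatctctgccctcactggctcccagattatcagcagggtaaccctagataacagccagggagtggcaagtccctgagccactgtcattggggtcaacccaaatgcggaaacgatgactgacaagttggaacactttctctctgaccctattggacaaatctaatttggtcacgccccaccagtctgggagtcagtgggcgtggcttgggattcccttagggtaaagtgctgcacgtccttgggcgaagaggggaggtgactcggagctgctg
COX8B: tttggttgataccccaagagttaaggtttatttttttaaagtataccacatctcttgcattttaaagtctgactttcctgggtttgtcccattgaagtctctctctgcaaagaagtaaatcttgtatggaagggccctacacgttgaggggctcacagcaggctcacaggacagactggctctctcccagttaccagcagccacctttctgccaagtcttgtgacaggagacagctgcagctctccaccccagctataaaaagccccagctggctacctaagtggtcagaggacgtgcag
UQCRC1: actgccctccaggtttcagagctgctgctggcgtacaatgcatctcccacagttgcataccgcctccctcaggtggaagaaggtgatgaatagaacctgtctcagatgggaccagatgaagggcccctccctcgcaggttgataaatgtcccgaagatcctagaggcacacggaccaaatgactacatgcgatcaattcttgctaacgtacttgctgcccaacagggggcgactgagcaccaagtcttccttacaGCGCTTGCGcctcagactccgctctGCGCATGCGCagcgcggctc
UQCR: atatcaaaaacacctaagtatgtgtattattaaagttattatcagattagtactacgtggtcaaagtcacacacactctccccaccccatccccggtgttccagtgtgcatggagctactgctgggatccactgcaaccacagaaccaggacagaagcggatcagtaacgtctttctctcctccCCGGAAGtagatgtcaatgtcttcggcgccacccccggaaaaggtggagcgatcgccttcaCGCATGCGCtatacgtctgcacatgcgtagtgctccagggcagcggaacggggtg

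The COX7A1 and COX8B windows held no match to either motif, nor to AAGATGGCG (YY1) or AAGGTCA (an extended half-site of nuclear receptors). The UQCRC1 window held GCGCNTGCG in the transcribed bases, 1 of its matches lying on both strands at nearly the same place, and the UQCR window held both motifs. Other members bright from day −2 on differed in this. Of the motifs named so far, COX7A2 held none, SDHB only CCGGAAG, NDUFA9 only AAGATGGCG, and COX6A1 both GCGCNTGCG and CCGGAAG. The printed windows are thus examples and no comparison of induced with bright genes. Of the 59 member genes with an entry in the promoter table, 18 held GCGCNTGCG in at least 1 of their windows (30.5%, against 7.1% of all 27025 genes of the table). The same count was for CCGGAAG 13 (22.0% against 9.9%), for AAGATGGCG 6 (10.2% against 1.6%), for AAGGTCA 7 (11.9% against 5.4%) and for GGGCGG, the GC box, 26 (44.1% against 38.2%). Of these genes, 39 were called lower in the KD over all days by their brightest probe. Among the 39, GCGCNTGCG was held by 13 (33.3%), CCGGAAG by 9 (23.1%) and AAGATGGCG by 5 (12.8%). AAGGTCA was held by 3 of them (7.7%) and GGGCGG by 16 (41.0%). No difference between these shares was tested. Both strands were searched and matches of different motifs were counted even where they overlapped. A match describes the letters and is not evidence of binding. The full direct repeat to which PPARγ and RXR bind was not searched, nor were bases outside these windows. The lack of matches at COX7A1 and COX8B thus says nothing about PPARγ sites at these genes.

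COX7A1 was above background on 15 control arrays and on no KD array. Under control siRNA its replicates read 4.97, 5.31 and 5.63 on day −2 and reached 7.68, 7.61 and 7.35 by day 2, 8.99, 8.84 and 8.13 by day 4, and 10.80, 10.72 and 10.30 by day 6. In the KD they began at 5.47, 5.22 and 5.94 and ended on day 6 at 5.60, 5.85 and 6.39. Control arrays thus became positive between days 1 and 2 and rose on each day after that, and KD arrays stayed under the detection limit. Since the KD gives only a limit, COX7A1 was at least 2.11-fold higher in control on day 2, at least 4.36-fold on day 4 and at least 17.4-fold on day 6. The fitted difference, which depends on the background, was −4.66 on day 6 and −2.04 over all days (adjusted p = 1.95e-20).

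COX8B followed later. It was above background in control on 2 of 3 arrays on day 3 and on all 3 from day 4, with 9.37, 9.54 and 8.43 on day 4 and 10.95, 10.92 and 10.79 on day 6. In the KD it was not above background before day 6, when the replicates read 7.01, 6.71 and 8.07. Control was at least 6.01-fold higher on day 4 and at least 13.9-fold higher on day 5, and on day 6, when both groups were measured, the difference was −3.62, a 12.3-fold lower signal in the KD. COX8B was the only member besides ATP5S that was called higher in the KD over its own course.

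COX6A2 had a course of its own. Its control replicates read 7.89, 8.04 and 7.68 on day −2, were not above background on days 0 and 1, and read 9.41, 9.50 and 9.49 on day 6. The KD replicates read 8.18, 8.14 and 8.21 on day −2, were not above background on day 0, read 7.37, 7.10 and 7.01 on day 1 and 8.55, 8.47 and 8.77 on day 6. On day 1 the KD was at least 1.56-fold higher (adjusted p = 0.000123), the 1 member called higher in the KD on any day (1.42% of all probes were higher on day 1), and this call was lost without replicate 2, without replicate 3 and without background correction. On days 4 to 6 COX6A2 was lower in the KD by 0.71 (SE 0.06; adjusted p = 1.27e-05), in 9 of 9 pairs.

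**Figure D2:**
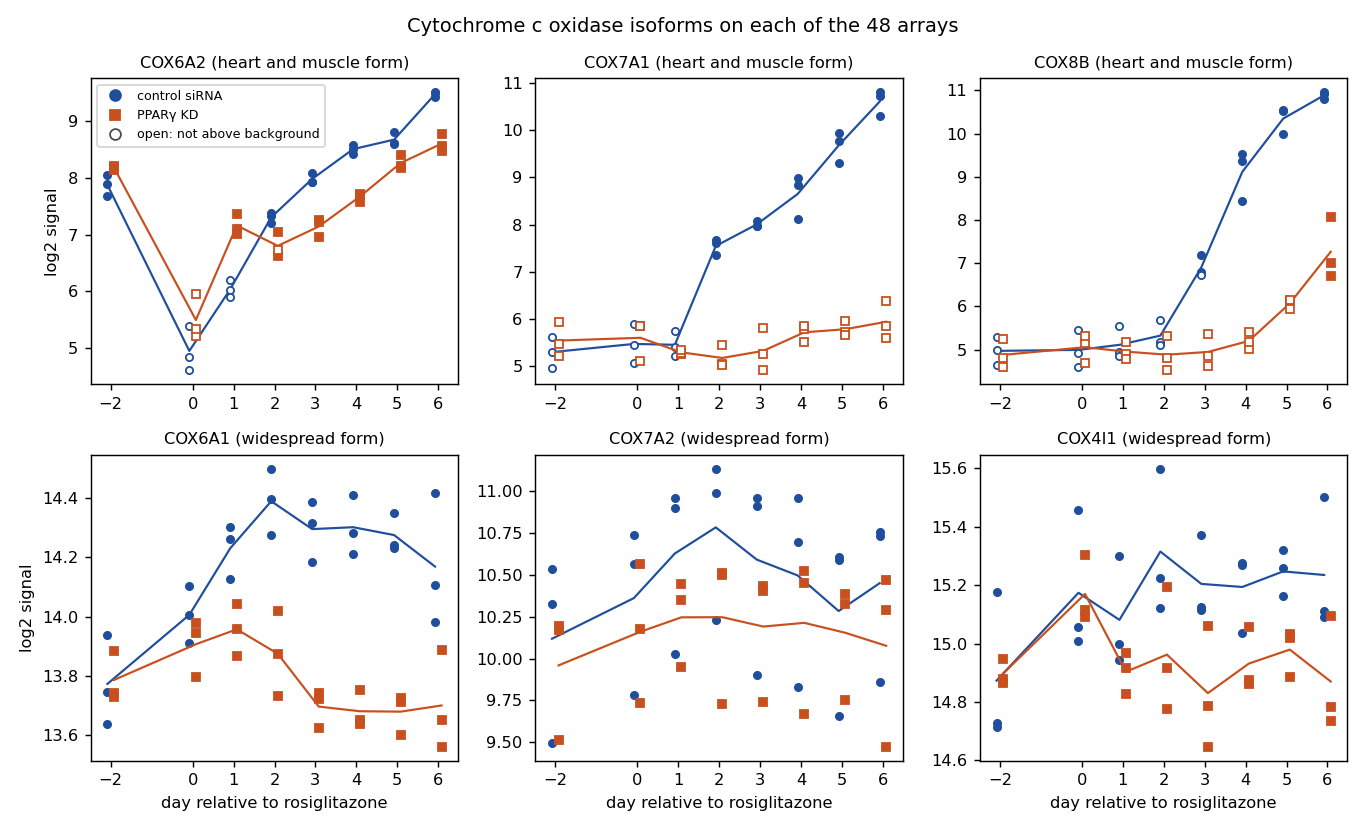
Log2 signal (y axis, a separate scale in each panel) of 6 complex IV genes on each of the 48 arrays against day relative to rosiglitazone (x axis); blue circles are control siRNA, orange squares PPARγ KD, lines join the means of 3 replicates, and open symbols are not above background. COX7A1 and COX8B rise in control to 10.61 and 10.89 on day 6, and the widespread forms move far less.

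In complex V, 8 of 12 probes were lower over all days, with a median of −0.29 ± 0.07 (SD of 3 replicates). ATP5B and ATP5A1, the catalytic and the non-catalytic subunit of the F1 head, fell by 0.39 (adjusted p = 6.61e-11) and 0.30 (adjusted p = 0.00528), and ATP5C1, the rotor shaft, by 0.30 (adjusted p = 3.73e-07). ATP5O, of the peripheral stalk, fell by 0.36 (adjusted p = 7.23e-10), ATP5G3, a ring subunit of the membrane part, by 0.33 (adjusted p = 6.46e-08), and ATP5K, a small membrane subunit, by 0.46 (adjusted p = 2.17e-06). ATP5K read far lower in replicate 3, and its difference was −0.72, −0.38 and −0.27 in replicates 1 to 3. ATP5E, the smallest F1 subunit, had −0.05 and ATP5S −0.08 (adjusted p = 1 for each). For ATP5B, the brightest of the named members of the head, the arrays of days 4 to 6 ran from 14.98 through a median of 15.22 to 15.47 in control and from 14.66 through 14.74 to 14.96 in the KD.

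The difference was not there at the start. On day −2, when PPARG itself was already lower in the KD, 0 member probes were called by limma with Bonferroni adjustment (4 were lower and 2 higher at an unadjusted p under 0.05, where 6.75% and 6.29% of all probes were, and 1 lower after Benjamini-Hochberg adjustment, where 2.5% were), against 0.674% of all probes that were lower. On day 0 both probes of COX4NB were lower (1.37% of all probes), and on day 1 NDUFA9 and SDHB (1.49% of all probes). On day 2 the number rose to 27 probes of 23 genes (4.18% of all probes), and it was 28 on day 3 (2.29%), 20 on day 4 (2.13%), 18 on day 5 (2.68%) and 19 on day 6 (3.09%). Over the 3 replicates the median difference of the members was −0.02 ± 0.02 on day −2, −0.09 ± 0.08 on day 0, −0.27 ± 0.04 on day 1, −0.39 ± 0.07 on day 2 and −0.43 ± 0.10 on day 3, and then −0.38 ± 0.13, −0.26 ± 0.07 and −0.36 ± 0.08 on days 4 to 6 (SD, n = 3). For all probes it was 0.01 on day −2, −0.11 on day 2 and 0.03 on day 6.

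The genes called lower on each of days 2 to 6 numbered 11 (by 11 of 86 probes, against 1.19% of all probes), among them NDUFA9, NDUFB3, NDUFB8, NDUFS3, NDUFV1, SDHB, UQCR, UQCRC1, UQCRC2 and COX7A1. NDUFS3 met this by its dimmer probe, and the 11 genes come from complexes I to IV. In complex V, 4 genes were called on 1 or 2 of these days, ATP5D and ATP5O on day 2, ATP5B, ATP5D and ATP5G3 on day 3 and ATP5B on day 5. In all, 35 probes of 30 genes were called lower on at least 1 day, against 7.05% of all probes, and without replicate 1, 2 or 3 this number was 9, 18 and 25.

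**Figure D3:**
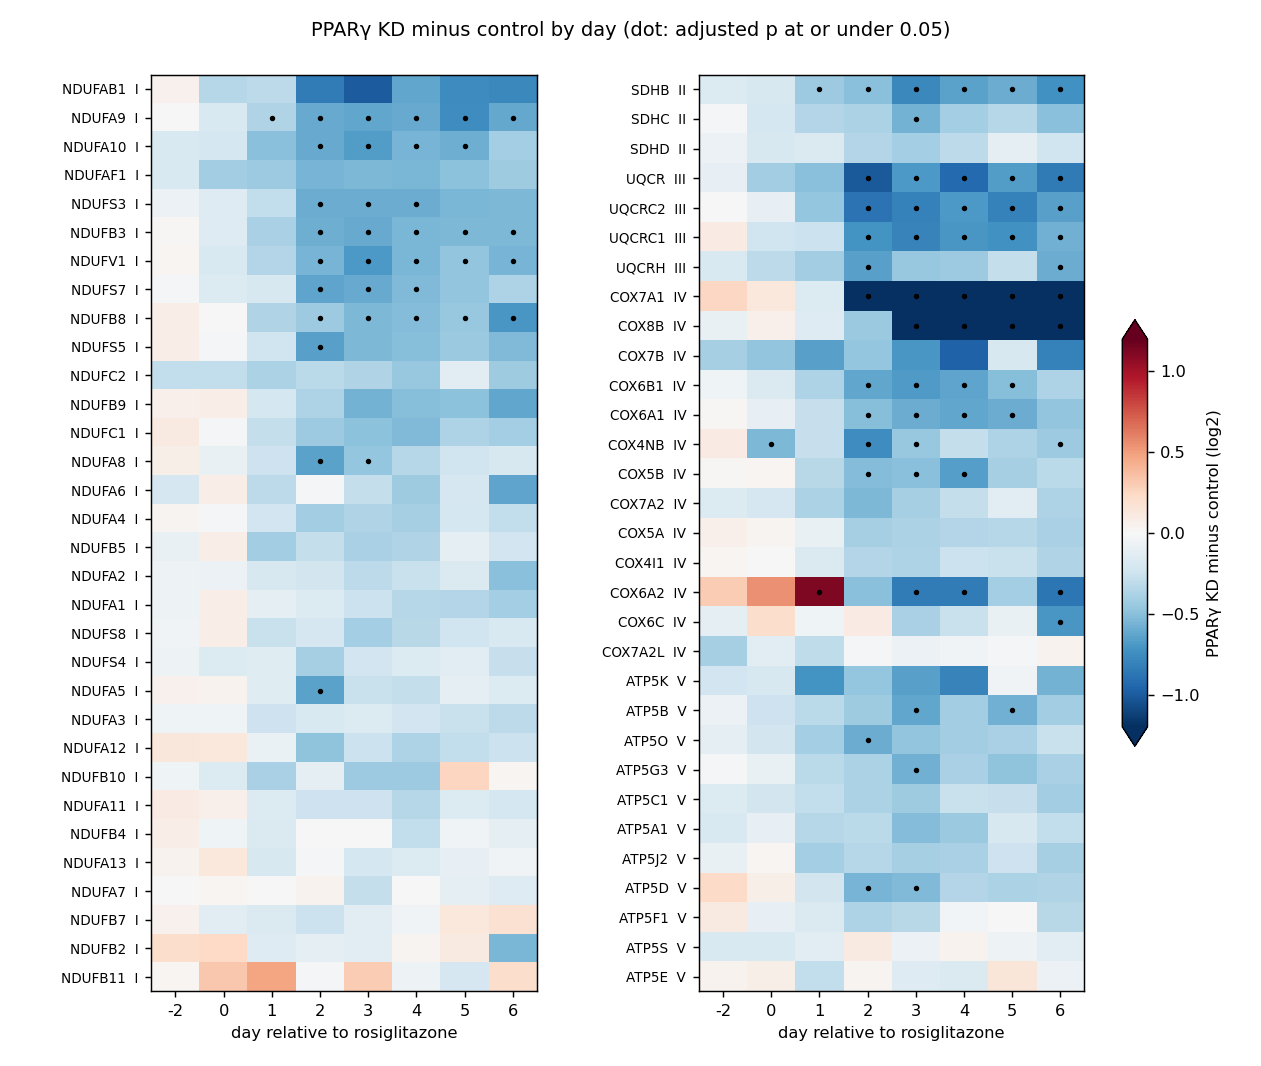
Difference between PPARγ KD and control on each day (columns, log2, colour scale limited to 1.2 in either direction) for the brightest probe of 63 genes above background on at least 3 arrays (rows, with their complex), with a dot where the adjusted p was at or under 0.05. The columns of days −2 and 0 are mostly pale, most rows turn blue from day 1 or 2, and COX6A2 is red on day 1 and blue from day 2.

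On days 4 to 6, fitted alone on their 18 arrays, 28 probes of 24 genes were lower in the KD and 0 higher, against 3.77% of all probes that were lower. After Benjamini-Hochberg adjustment 60 were lower (9.82% of all probes) and 0 higher (11% of all probes), and at an unadjusted p under 0.05, 0 were higher (15.7% of all probes). Medians were −0.30 for complex I (13 of 41 probes called), −0.30 for complex II (1 of 6), −0.55 for complex III (4 of 6), −0.37 for complex IV (9 of 21) and −0.33 for complex V (1 of 12), and −0.34 for all members against −0.01 for all probes. The complex V probe was that of ATP5B, at −0.47 (SE 0.05; adjusted p = 0.00128). Without replicate 1, 2 or 3 the count was 9, 9 and 17, and the medians kept their sign.

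Many members rose during differentiation in control and few did in the KD. In control, 26 member probes of 23 genes were higher on days 4 to 6 than on day −2 and 0 were lower (0 also at an unadjusted p under 0.05, where 13.9% of all probes were lower, and after Benjamini-Hochberg adjustment, where 10.8% were, by limma), while 4.61% of all probes were higher. Their change lay between 0.35 and 1.01, apart from COX7A1 and COX8B. By complex, 13 of 41 probes rose in complex I, 1 of 6 in complex II, 4 of 6 in complex III, 8 of 21 in complex IV and 0 of 12 in complex V. Without replicate 1, 2 or 3 the count of 26 was 8, 8 and 18. UQCR rose by 0.68 (SE 0.08; adjusted p = 2.59e-06), from 12.37, 12.29 and 12.54 on day −2 to 13.03, 12.91 and 13.25 on day 6, NDUFV1 by 0.60 (adjusted p = 2.64e-06) and SDHB by 0.39 (adjusted p = 0.00642).

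The rise was early. In control the median change of the members from day −2 was 0.14 ± 0.07 on day 0, 0.27 ± 0.03 on day 1 and 0.42 ± 0.05 on day 2, and then between 0.27 and 0.35 on days 3 to 6. Complex III reached 0.79 ± 0.07 on day 2 and stood at 0.51 ± 0.05 on day 6, complex IV reached 0.50 ± 0.09 and stood at 0.35 ± 0.03, and complex I reached 0.41 ± 0.06 and stood at 0.31 ± 0.08 (SD, n = 3). UQCRC1 gives an example, starting at 12.28, 12.27 and 12.29, reaching 13.14, 13.13 and 13.04 by day 2 and ending on day 6 at 12.83, 12.71 and 12.75. In the KD the median of the members stayed between −0.03 and 0.10 on days 0 to 6, and UQCRC1 read 12.50, 12.32 and 12.31 on day −2 and 12.18, 12.06 and 12.31 on day 6. The medians of the complexes thus peaked on day 2 or 3, and COX7A1 and COX8B were highest on day 6.

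**Figure D4:**
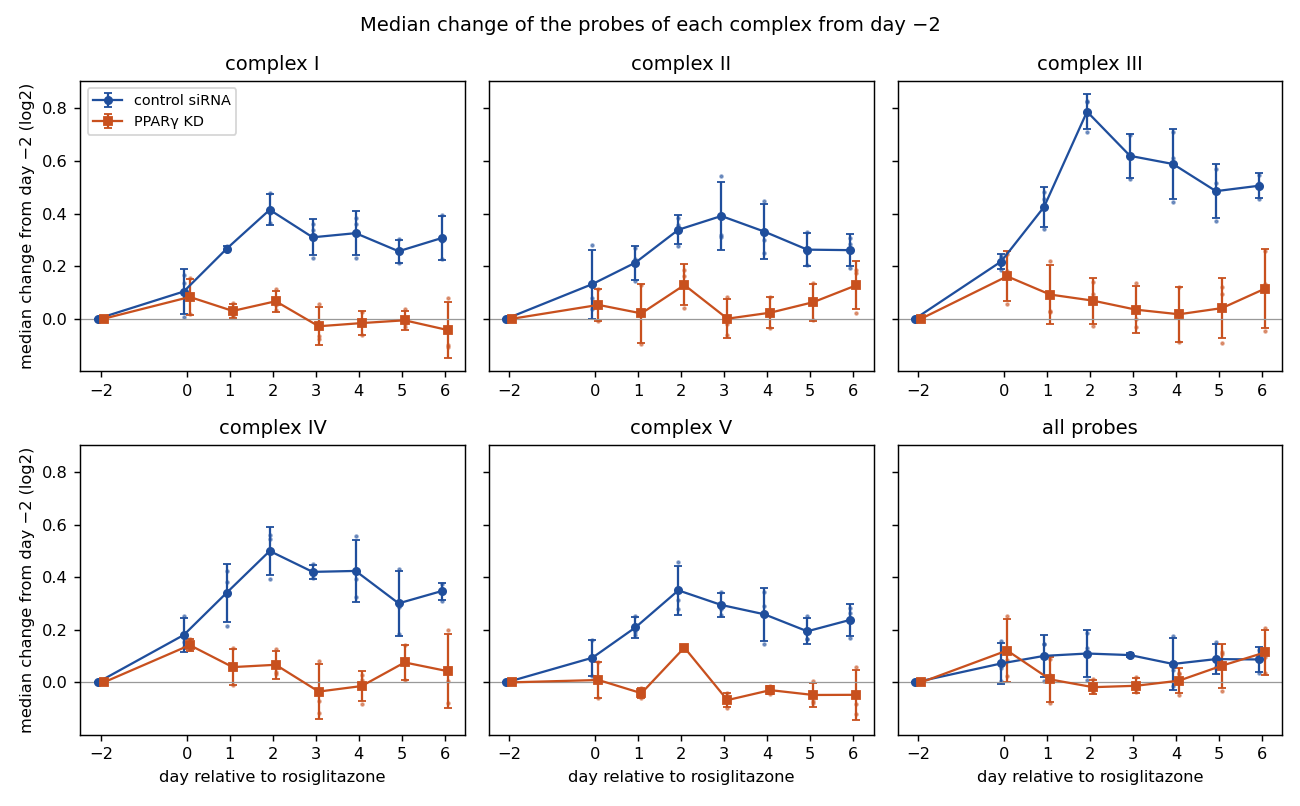
Median change of the probes of each complex from day −2 (y axis, log2) against day relative to rosiglitazone (x axis), with all probes of the array in the last panel; blue circles are control siRNA, orange squares PPARγ KD, large symbols means of 3 replicates with SD, dots the replicates. Every complex climbs in control up to day 2 or 3, complex III to 0.79, and the KD means lie between −0.07 and 0.16.

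Over the same interval the KD had 2 member probes called higher, COX8B at 1.30 (adjusted p = 0.00642) and ATP5S at 0.58 (adjusted p = 0.0123), against 2.99% of all probes, and 0 called lower by limma with Bonferroni adjustment. In the KD, COX8B was above background on no array of day −2 and on only 3 arrays of days 4 to 6. Its value of 1.30 thus depends on the background. At an unadjusted p under 0.05, 12 members were lower and 11 higher (11.8% and 14.2% of all probes), and after Benjamini-Hochberg adjustment 7 were lower and 5 higher (8.65% and 9.29% of all probes), so the members' shares in the KD lay near those of all probes. Without replicate 1, 2 or 3 the number called higher was 0, 0 and 1. Any change over the 8 days was called for 34 member probes in control (23.5% of all probes) and for 9 in the KD (16.5% of all probes); without replicate 1, 2 or 3 these were 8, 9 and 20 in control and 2, 2 and 3 in the KD. The 9 included probes of NDUFA6, NDUFA12, NDUFB8, COX4NB, COX6A2, COX7A2L and COX8B.

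Whether the 2 courses differed was tested directly. The change from day −2 to days 4 to 6 was lower in the KD than in control for 13 member probes of 13 genes and higher for 0 (1 at an unadjusted p under 0.05, where 10.1% of all probes were higher, and 1 after Benjamini-Hochberg adjustment, where 5.77% were), against 2.41% of all probes that were lower, and 77 of 86 members had a negative difference, as had 56.1% of all probes. Without replicate 1, 2 or 3 the count was 2, 2 and 8. The 13 included NDUFA9, NDUFB8 and NDUFV1 of complex I, UQCR, UQCRC1 and UQCRC2 of complex III, COX6A1, COX6A2, COX7A1, COX8B and COX4NB under complex IV, and ATP5D of complex V. COX6A1 and COX4NB met this by their dimmer probes only. For UQCRC1 the courses were 0.62 in control and −0.15 in the KD, a difference of −0.77 (adjusted p = 4.76e-06). For COX7A1 they were 4.35 and 0.27, a difference of −4.07 (adjusted p = 3.29e-13).

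**Figure D5:**
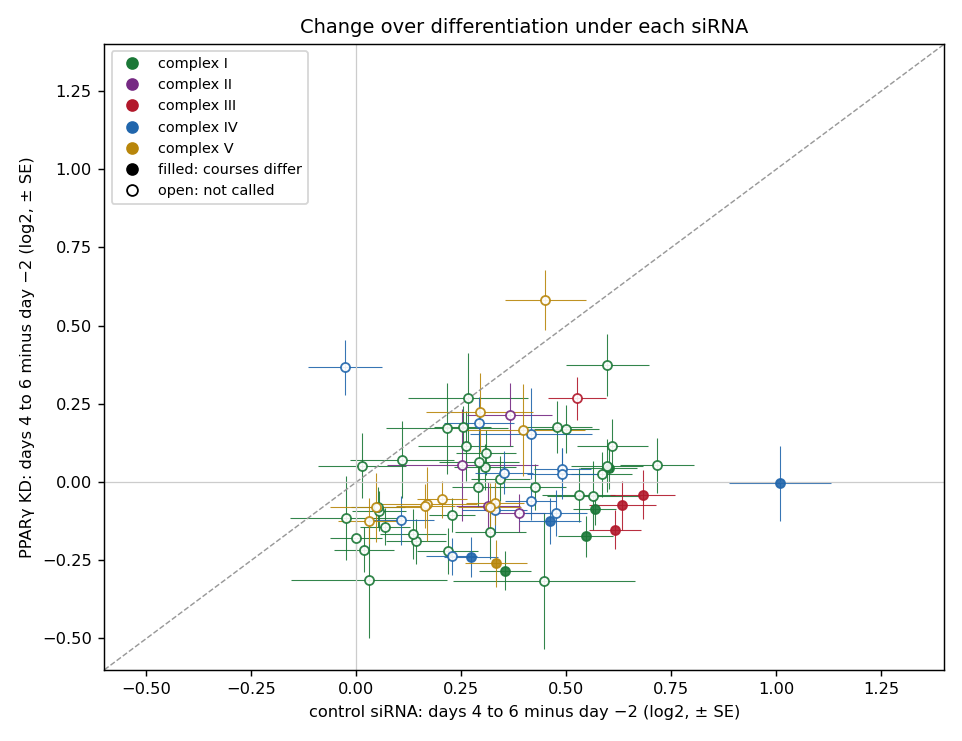
Change from day −2 to days 4 to 6 under control siRNA (x axis) and in the PPARγ KD (y axis), log2 ± SE, for the 73 member probes above background on at least 3 arrays, coloured by complex and filled where the 2 courses differed at an adjusted p at or under 0.05; the dashed line marks equal change. COX7A1 (4.35 and 0.27) and COX8B (5.14 and 1.30) lie beyond the right edge, and most other points lie right of 0 and below the line.

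Genes that serve the chain without matching the name rule were read from 2 lists. Of 15 probes of 12 genes on the electron carrier list, 13 were lower in the KD over all days and 0 higher. The median of the 15 was −0.51. Besides carriers, this list holds CYC1 and genes of ubiquinone synthesis such as COQ3 and COQ5. Above background on at least 3 arrays were 12 of the 15 probes. COQ3, called lower, was above background on 1 control array and 0 KD arrays. Of all probes, 6.74% were lower and 6.37% higher. CYCS, cytochrome c, fell by 0.99 (SE 0.03; adjusted p = 5.43e-25) and COQ5, a methyltransferase of ubiquinone synthesis, by 0.93 (adjusted p = 4.06e-20) by its brighter probe. CYC1 of complex III fell by 0.76 (SE 0.03; adjusted p = 1.05e-19). In control, 11 of the 15 probes rose by days 4 to 6 (4.61% of all probes did), and in the KD 0 did (2.99%). Of 23 probes of 17 assembly factor genes, 13 were lower and 0 higher over all days, beside the same shares of all probes, with a median of −0.26. ATPAF2, which helps to assemble the F1 head, fell by 0.83 (adjusted p = 7.44e-23) and FOXRED1, which acts on complex I, by 0.69 (adjusted p = 5.61e-11) by its brightest probe. ATPIF1, the inhibitor of complex V, chosen after its value was seen, had −0.03 (adjusted p = 1).

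For comparison, of 99 probes of mitochondrial ribosomal proteins, which make the mitochondrially encoded subunits, 52 were lower over all days and 0 higher, with a median of −0.18. Of all probes, 6.74% were lower and 6.37% higher. Of 71 probes of cytosolic ribosomal proteins 4 were lower and 1 higher, with a median of −0.03. On days 4 to 6 the lower probes numbered 16 of 99 and 1 of 71, beside 28 of 86 for the respiratory subunits and 3.77% of all probes. These are counts side by side, and the difference between the sets was not tested.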

How the data were processed

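RNA of 3T3-L1 cells was hybridised to 48 one-colour Illumina mouse arrays. The deposited table held, for each array, the mean bead intensity of each probe from BeadStudio 3.3.7, not normalized, and a detection column, which the authors deposited as a fraction from 0 to 1 and which equals 1 minus the detection p-value; it was turned into a detection p before use. Array precision is limited by the number of arrays. From these intensity values the background was corrected by normexp with detection p-values (offset 16) in limma 3.58.1 (R 4.3.3), arrays were scaled on rank-invariant probes (signal between the 50th and 90th percentile, rank shift under 0.05), and log2 was taken. Scale factors ran from 0.73 to 1.58, and 33.4% to 40.4% of probes were above background on an array (33.4% to 35.4% in replicate 3, 36.8% to 40.4% in replicates 1 and 2). No arrays were duplicates.

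All 24613 probes were fitted with lmFit and eBayes, each siRNA on each day having its own mean and replicate numbers entering as blocks. The fit treats arrays as independent apart from this block. The SE and adjusted p can therefore be too small where the KD effect differed between the 3 replicates, and they do not measure that spread. The study's methods remove a batch effect without saying what the batch was, and the replicate number was used for it here. Days 4 to 6 were fitted alone. A call is a Bonferroni adjusted p at or under 0.05 over all probes. Control and KD arrays of a day were paired by their replicate number. Such arrays deviated together in 24 of 24 pairs (correlation 0.544 to 0.914). The shift of replicate 3 can add to these correlations, so they do not by themselves show that the arrays of a day are pairs. The main fit did not use this pairing within days, and the lower counts with a replicate block by day are given at the end. Only the fit was tested on simulated data, made as log2 values with independent noise and known changes. Background correction, scaling and lower bounds were not tested in this way. Where a group was above background on no array, a fold is a lower bound: the mean of the measured group over the higher, per array, of the lowest signal above background and the probe's own signal.

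The members and gene lists were chosen with earlier results of these data known. A gene with several probes is given by its brightest probe unless stated. Genes named are the up to 3 largest falls and rises called in each complex, with the same sign in all 3 replicates, the core subunits, the isoform groups of complexes IV and V, PPARG, and, of the lists, the 2 largest falls and rises called; others are named as chosen after their values were seen or by a count. Symbols are those of the array design, some now replaced. Alternatives were quantile normalization, no background correction, offset 50, a filter on dim probes, Benjamini-Hochberg adjustment, other replicate blocks and leaving out each replicate. No protein sequences were used here, and 1 member gene, kept in all fits and counts, is not reported here by name or in the figures that list genes.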

Additional observations from a re-analysis of the deposited data

Results flagged for a closer look

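For 13 member probes, of which 12 are given here, the change from day −2 to days 4 to 6 differed between the siRNAs in a direct test of the difference (interaction contrast in limma, Bonferroni over all probes). In complex I the course in the PPARγ KD minus that in control was −0.65 for NDUFA9 (0.57 in control and −0.09 in the KD), −0.64 for NDUFB8 (0.35 and −0.28) and −0.56 for NDUFV1 (0.60 and 0.05). In complex III it was −0.72 for UQCR (0.68 and −0.04), −0.77 for UQCRC1 (0.62 and −0.15) and −0.71 for UQCRC2 (0.63 and −0.07).

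In complex IV it was −0.59 for COX6A1 by its dimmer probe (0.46 and −0.12), while the brighter probe had −0.58 and was not called. It was −1.01 for COX6A2 (1.01 and −0.00), −4.07 for COX7A1 (4.35 and 0.27) and −3.84 for COX8B (5.14 and 1.30). In complex V it was −0.59 for ATP5D (0.33 and −0.26). COX4NB, whose name matches the rule although it is no subunit, had −0.51 by its dimmer probe (0.27 and −0.24), and its brighter probe was not called. COX7A1 was above background on no KD array and COX8B on none before day 6, so the sizes for these 2 genes depend on the background. Without replicate 1, 2 or 3 the number of such probes was 2, 2 and 8.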

How the results depend on the processing

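Single probes were followed under the alternatives for the largest called differences of each complex, the core subunits and the isoform groups. No called difference of these genes changed direction. Other called probes were followed only within the counts and the complex medians. Benjamini-Hochberg adjustment gave 60 lower members on days 4 to 6, 62 lower and 2 higher on at least 1 day, 51 higher in the control course, 5 higher and 7 lower in the KD course, 39 lower and 1 higher in the course difference, and 64 (control) and 39 (KD) with any change over time. Without the replicate block the counts were 34 lower over all days, 13 on days 4 to 6, 19 on at least 1 day, 13 in the control course, 1 in the KD course, 8 in the course difference, and 20 (control) and 2 (KD) over time; with a replicate block by day they were 43 over all days and 24 on days 4 to 6.

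Leaving out 1 replicate gave 33 to 45 lower members over all days, 9 to 17 on days 4 to 6, 9 to 25 lower and 0 to 1 higher on at least 1 day, 8 to 18 higher in the control course and 0 to 1 in the KD course, 2 to 8 in the course difference, 8 to 20 (control) and 2 to 3 (KD) over time, and a complex II median from −0.38 to −0.12 over all days. The filter on dim probes gave medians over all days and days 4 to 6 of −0.52 and −0.69 for complex III and −0.37 and −0.45 for complex IV, since it drops probes never detected. Quantile normalization gave −0.21 for complex I on days 4 to 6. Without background correction the complex IV median over all days was −0.26, 0 members were higher on any day and 1 in the KD course, as with offset 50; the cause was not tested. COX7A1, COX8B, NDUFA9 and UQCR stayed called over all days in all 10 settings. Some other falls called over all days did not. COX4I1, COX5A and NDUFAB1 were called in 6 of the 10 settings, and COX7A2 and ATP5A1 in 7. COX7B and ATP5K were called in 8 and COX6B1 in 9. Dim probes such as NDUFAB1 are limited by signal over background.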
